A study of Mus musculus with 6 samples.

Results

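Keratin-associated proteins (KAPs, genes named Krtap in the mouse) are small proteins that fill the space between keratin filaments in the hair shaft and bind them together. The family was taken as every probe that is not a control and whose gene name on the array begins with Krtap, which gave 65 of 55681 probes and 51 of 36161 gene names, each here a gene. The array's names are partly old, and all genes are given here by their current RefSeq symbols. Where the array's name differs it is stated, for example Krtap6-5, which the array calls Krtap16-8.

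RNA was measured in biopsies of 3 skin tumors and 3 healthy skins of female FVB/N mice, an inbred strain, on 1-colour microarrays. The tumors, labelled as cutaneous squamous cell carcinoma (cSCC), were induced by painting skin with DMBA, a mutagen, followed by courses of 6 and 14 weeks of the phorbol ester TPA (PMA) with another dose of DMBA between them. Healthy skin received the solvent acetone. Since painted skin free of tumors is not among the samples, tumor and treatment cannot be told apart. Samples are numbered here by their titles, S1 to S3 (healthy skin 1 to 3) and T1 to T3. The labels' descriptions carry other numbers: the sample titled S1 is described as S3, and the one titled T1 as T2, so the labels conflict on which sample is which within a group but not on the group. The labels say that samples were taken throughout the protocol but give neither the day nor the animal of each biopsy. The spread behind a p-value is therefore only that between these 6 samples, which may be technical in part.

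Hair shafts are built in growing follicles only, by matrix cells that leave the cell cycle, fill with hair keratins and then with KAPs, and die as hard keratin. The KAPs are sorted by composition. High glycine-tyrosine KAPs are rich in those residues and are abundant in the hair cortex, while high sulfur and ultra-high sulfur KAPs are rich in cysteine, whose disulfide bonds crosslink the keratin filaments. Follicles cycle between growth, regression and rest, and in the mouse neighbouring follicles tend to cycle together.

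The sequences of some probes show these compositions. A few that the results below turn on are given 5′ to 3′ as printed on the array. Capitals mark GGNTAT, a glycine and a tyrosine codon where read in frame. They also mark 2 cysteine codons in a row (each TGC or TGT, where read in frame). Positions follow the array design, on mm9. The first 4 are high glycine-tyrosine genes of the chromosome 16 cluster, at chr16:89206195-89206254 (plus strand), chr16:89403912-89403971 (minus strand), chr16:89032140-89032199 (plus strand) and chr16:89047852-89047911 (minus strand).
Krtap20-2: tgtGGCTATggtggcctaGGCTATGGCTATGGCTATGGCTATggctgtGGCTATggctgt
Krtap21-1: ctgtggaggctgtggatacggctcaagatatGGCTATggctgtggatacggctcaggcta
Krtap6-1: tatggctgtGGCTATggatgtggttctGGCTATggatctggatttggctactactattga
Krtap6-5: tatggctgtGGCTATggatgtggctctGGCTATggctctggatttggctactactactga

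Another 2 probes of the same cluster, for Krtap19-4 at chr16:88885057-88885116 and Krtap19-5 at chr16:88896479-88896538 (both minus strand), are shown because healthy skin 3 was near or above healthy skin 1 for both genes, where for most of the family it was far below.
Krtap19-4: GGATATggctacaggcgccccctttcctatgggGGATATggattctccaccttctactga
Krtap19-5: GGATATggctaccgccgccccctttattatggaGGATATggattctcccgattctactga

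Cysteine pairs stand in some ultra-high sulfur probes, and also in some probes of other classes, such as that of Krtap22-2. Shown are Krtap4-8 of the chromosome 11 cluster at chr11:99641467-99641526, and Krtap5-1 and Krtap5-5 of the chromosome 7 cluster at chr7:149482800-149482859 and chr7:149415305-149415363 (all minus strand).
Krtap4-8: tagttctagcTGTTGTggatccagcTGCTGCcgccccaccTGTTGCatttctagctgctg
Krtap5-1: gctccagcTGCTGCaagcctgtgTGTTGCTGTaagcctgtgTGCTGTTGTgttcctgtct
Krtap5-5: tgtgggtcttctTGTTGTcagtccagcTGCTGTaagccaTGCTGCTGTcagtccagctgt

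A cysteine pair stood in 17 of the 65 Krtap probes (26.2%), against 8.73% of all 55681 probes, and GGNTAT stood in 12 (18.5%), against 3.72% of all probes. Each motif was searched on the strand of the probe, and the letters do not overlap between the motifs. Similar probes may pick up each other's transcripts. The probe of Krtap6-1 and that of Krtap6-5 shared 57 of 60 bases, those of Krtap19-4 and Krtap19-5 shared 52 of 60, and a pair for Krtap5-1 and Krtap5-5 shared 43 of 51 aligned bases, so the values within each of these pairs are uncertain as to gene. Of the 6 probe pairs with at least 80% identity, the other 3 lay within 1 gene.

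Signals are given as log2 of the processed signal minus the 75th percentile of the same array, so 0 is the signal that 75% of its spots stay below. Between 48.7% and 65.4% of the 59305 noncontrol spots of an array were well above background, with tumor 1 lowest. Median background was 85 on tumor 1 and 23 to 26 elsewhere (intensity units), and healthy skin 3 was the dimmest array, with a 75th percentile of 242 against up to 897. The labels give 0.2 µg of RNA and an RNA integrity number of 9 for every sample. The keratinocyte genes Krt5 and Krt14 were strong on all 6 arrays, with log2 signals from 6.92 to 9.59, as the skin label has it. Krt1 and Krt10, also keratinocyte genes, were lower in tumors (limma, adjusted p = 0.0418 and 0.0182). Krt1 had 2.46, 1.90 and 5.42 in tumors 1, 2 and 3, against 5.92, 6.80 and 5.91 in healthy skin 1, 2 and 3. Krt10 had 5.53, 2.94 and 6.16 in tumors 1, 2 and 3, against 8.02, 8.44 and 8.30 in healthy skin 1, 2 and 3. The number of arrays limits the precision of every value.

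Of the 65 Krtap probes, 60 (47 genes) were well above background on at least 3 arrays and entered the test. The detected number ran with the array, not with the group: 60, 38 and 62 probes were well above background on tumors 1, 2 and 3, against 64, 39 and 36 on healthy skin 1, 2 and 3. All 6 arrays detected 32 probes, and 17 were detected on exactly 3. The plot of all probes by array shows the same, with tumor 2, healthy skin 2 and healthy skin 3 dark over most of the family.

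**Figure D1:**
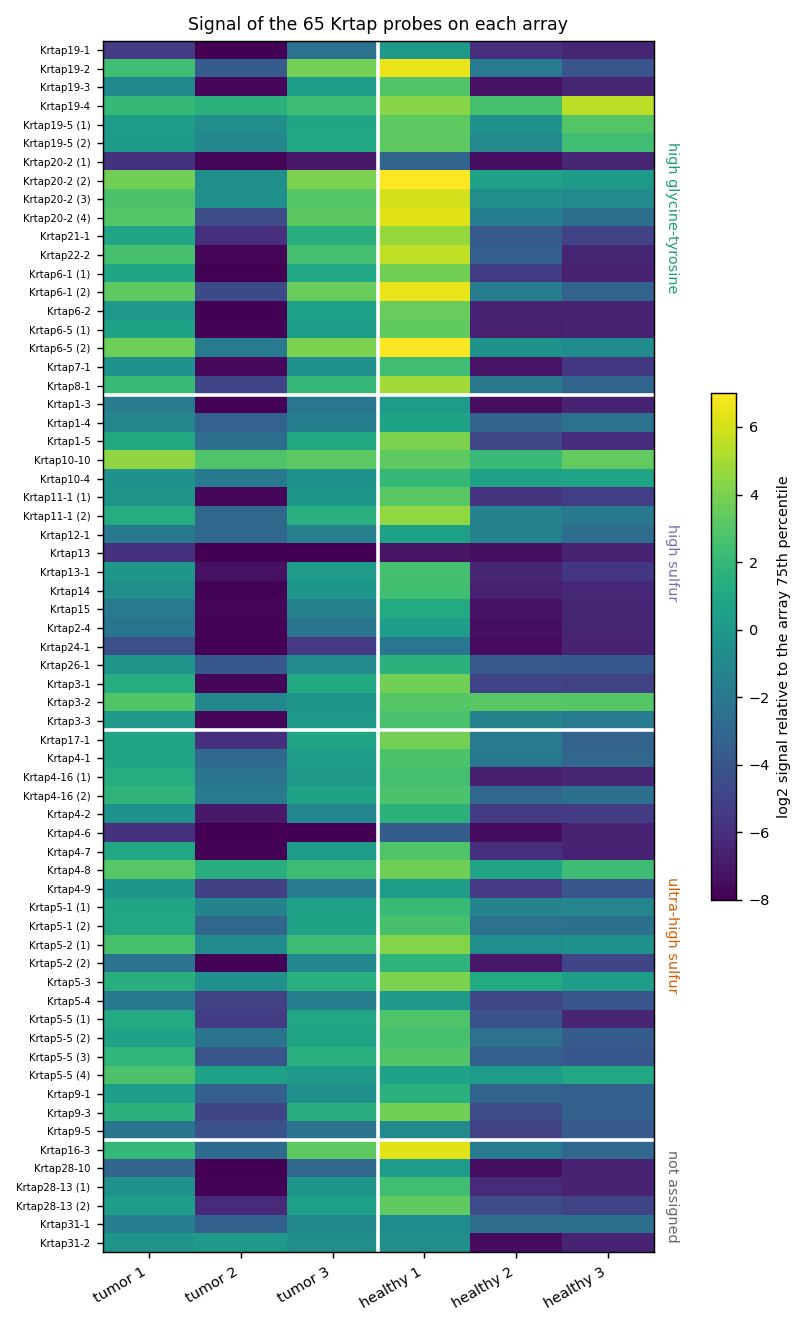
Log2 signal relative to the 75th percentile of the array (colour) of the 65 Krtap probes (rows, grouped by composition class; numbers in brackets separate probes of 1 gene) on 3 tumor and 3 healthy skin arrays (columns). Most probes were bright on tumor 1, tumor 3 and healthy skin 1, and Krtap10-10 and Krtap4-8 were bright on all 6 arrays.

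The first comparison asked whether KAP transcripts differ between tumors and healthy skin. Only Krtap10-4, a high sulfur KAP of a family expressed in the hair cuticle in humans, passed the test, and it fell in tumors. Its probe (chr10:77288970-77289029, minus strand) had log2 signals of -0.40, -1.96 and -0.32 in tumors 1, 2 and 3, against 1.97, 0.62 and 0.76 in healthy skin 1, 2 and 3. Every tumor lay below every healthy skin, with tumor 2 and healthy skin 2 the lowest of their groups. The difference (limma, Benjamini-Hochberg over all probes, log2 fold change -2.01 ± 0.56 SE, adjusted p = 0.0364) is 4.02-fold lower. Leaving out any array except tumor 3 ended the call, with log2 fold changes from -2.26 to -1.47. Healthy skin 1 and 2 lay in row 1 of the slide and the other arrays in row 2. The slide row as a block also ended the call (log2 fold change -1.65), and within row 2 healthy skin 3 was above all 3 tumors. In a bulk biopsy, fewer cells of a type and less RNA per cell cannot be told apart, here and in every value below.

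Over the family, 1 of 60 tested probes was lower in tumors, where the background over all 34283 probes was 16%, and 0 were higher, where the background was 10.1%. Of the 60, 4 had an unadjusted p under 0.05, and tumors and healthy skins did not overlap for 4, against a background of 49.8%. The log2 fold change was positive for 42 probes and negative for 18, with a median of 0.28 over the family and -0.18 over all probes. That median has no stable sign: it was 2.52 without healthy skin 1, 2.08 without tumor 2, -0.86 to -0.54 without any other single array, and -0.18 with normexp. The 95% intervals were wide: their median width was 10.4 log2 units, against 1.71 over all probes. A probe without a call here can therefore still differ between tumors and healthy skin by a large factor.

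**Figure D2:**
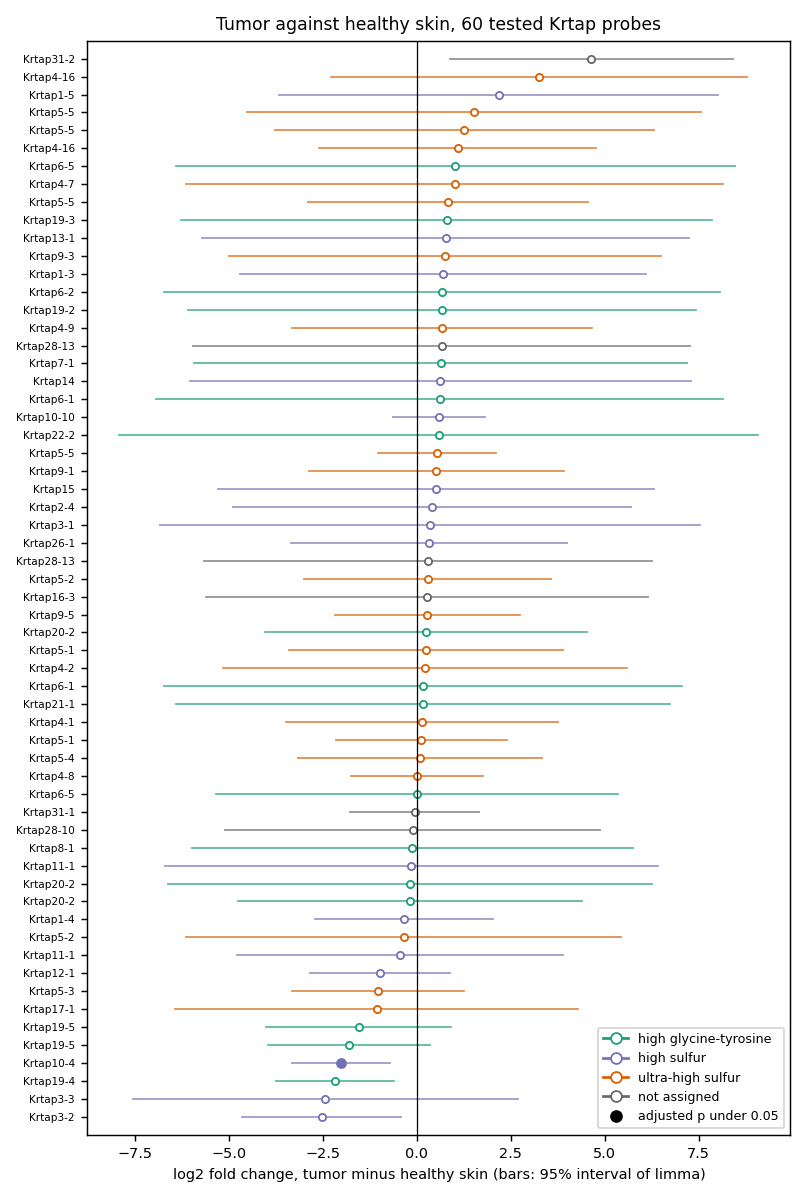
Log2 fold change of tumor minus healthy skin (x axis) with its 95% interval from limma for the 60 tested Krtap probes (rows, 1 per probe), coloured by composition class. The filled point is Krtap10-4, the single probe with an adjusted p under 0.05, and most intervals cross 0 on both sides by several log2 units.

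The other 3 probes whose groups did not overlap missed the threshold. Krtap19-4 (Krtap16-4 on the array), a high glycine-tyrosine KAP, had log2 signals of 2.04, 1.61 and 2.33 in tumors 1, 2 and 3, against 4.34, 2.64 and 5.52 in healthy skin 1, 2 and 3 (log2 fold change -2.17 ± 0.67 SE, adjusted p = 0.0508). Krtap3-2, a small high sulfur KAP, had 2.90, -1.01 and -0.21 in tumors 1, 2 and 3, against 3.03, 3.16 and 3.07 in healthy skin 1, 2 and 3 (log2 fold change -2.52 ± 0.91 SE, adjusted p = 0.077). Healthy skins were nearly equal for Krtap3-2, with an SD of 0.06, while tumor 1 came within 0.13 of them and tumors 2 and 3 were lower. Leaving out tumor 1, the tumor nearest the healthy skins, gave an adjusted p of 0.00293 and a log2 fold change of -3.70 for Krtap3-2. Krtap3-2 passed the test under 3 alternatives and missed it under 16, with adjusted p from 0.0576 to 0.423. Leaving out healthy skin 2 gave an adjusted p of 0.012 and a log2 fold change of -2.93 for Krtap19-4. Krtap19-4 passed the test under 7 of 19 alternatives, among them the slide row as a block (log2 fold change -3.52, adjusted p = 0.016).

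Krtap31-2 went the other way. Its log2 signals were -0.17, 0.04 and -0.57 in tumors 1, 2 and 3, against -0.58, -7.53 and -6.53 in healthy skin 1, 2 and 3 (log2 fold change 4.65 ± 1.61 SE, adjusted p = 0.0697). The tumors were close together and healthy skin 1 was level with them, while healthy skin 2 and 3 were not well above background. Its fold change rests on those 2 signals. With normexp background correction the log2 fold change was smaller, 1.98, but passed the test (limma, adjusted p = 0.0424). Krtap31-2 passed under 4 alternatives and missed the threshold under 14. Its neighbour Krtap31-1 had -1.58, -3.41 and -1.02 in tumors 1, 2 and 3, against -0.73, -2.64 and -2.50 in healthy skin 1, 2 and 3 (log2 fold change -0.05 ± 0.73 SE, adjusted p = 0.967), so the groups overlapped and tumor 2 was the lowest array.

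The 120 bases before the start of Krtap31-1 and Krtap31-2 are shown because these neighbours on chromosome 11 differ in values while their promoters share 116 of 120 bases; their probes, in contrast, share 25 of 41 aligned bases. Sequences and positions are from RefSeq (GRCm38.p6), at chr11:99907800-99907919 and chr11:99936171-99936290, both plus strand, with capitals marking TATAAA, the letters of a TATA box.
Krtap31-1: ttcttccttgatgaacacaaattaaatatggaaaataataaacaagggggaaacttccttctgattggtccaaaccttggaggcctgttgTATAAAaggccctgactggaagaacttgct
Krtap31-2: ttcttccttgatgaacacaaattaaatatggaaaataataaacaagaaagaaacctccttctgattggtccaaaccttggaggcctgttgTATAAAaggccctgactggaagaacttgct

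The second question was how KAP signals vary between arrays of 1 group. Here the family stood far from the median over all probes, as did the hair keratins and inner root sheath genes counted below. The SD of log2 signal had a median of 3.02 within tumors, against 0.36 over all probes, and 3.94 within healthy skins, against 0.43. These SDs include signals near background on tumor 2, healthy skin 2 and healthy skin 3. For the 32 Krtap probes detected on all 6 arrays, the medians were 1.94 and 2.84. Over all probes so detected they were 0.32 and 0.39. With normexp background correction the Krtap medians were 1.86 and 2.66, against 0.32 and 0.38 over all probes. Above the 99th percentile of all probes lay 37 of 60 Krtap probes for the tumor SD and 49 of 60 for the healthy skin SD. One array in each group made most of this spread: without tumor 2 the median SD within tumors was 0.26, and without healthy skin 1 that within healthy skins was 0.58. The patterns counted next were chosen after these values were seen and are descriptions with no test.

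**Figure D3:**
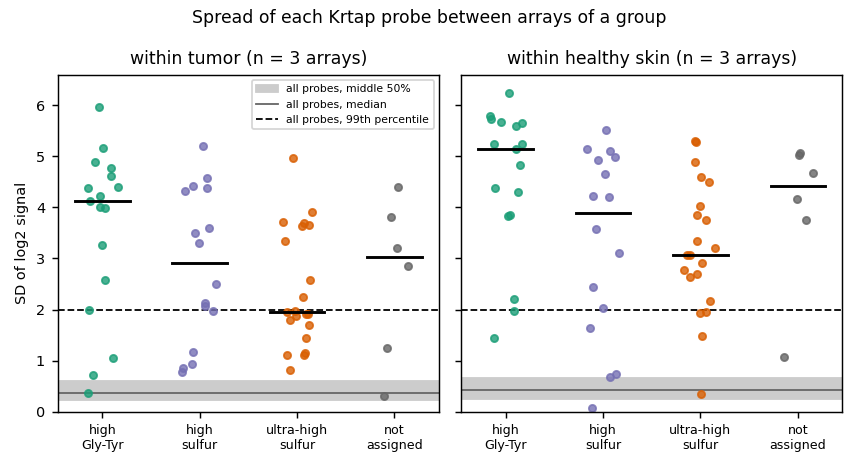
SD of log2 signal over 3 arrays (y axis) within tumors (left) and within healthy skin (right) for each tested Krtap probe (points, by composition class; short black lines are class medians), with the median, middle 50% and 99th percentile of all tested probes. The class medians within tumors run from 1.96 to 4.12 and within healthy skin from 3.08 to 5.14, against medians of 0.36 and 0.43 over all probes.

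Tumor 2 was below tumors 1 and 3 for 58 of 60 probes, where the background over all probes was 27.7%. Healthy skin 1 was above healthy skin 2 and 3 for 56 of 60, where the background was 20%, and 55 of 60 did both, against 6.01%. With at least an 8-fold difference asked for, tumor 2 was lower for 42 (0.373% of all probes), healthy skin 1 was higher for 48 (0.519%), and both held for 42, against 0.295%. Putting the lowest signal that was well above background in place of dimmer signals left 41 of 60, against 0.274%. These counts include probes detected only on tumor 1, tumor 3 and healthy skin 1, such as Krtap14 and Krtap3-1. Such probes passed the filter through the arrays on which they were bright, so the filter largely set their order. Over all 65 probes, both 8-fold differences held for 42 (64.6%). The share among probes detected on all 6 arrays was not counted.

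The sizes were large. With the lowest signal well above background in place of dimmer signals, tumor 1 exceeded tumor 2 by a median of at least 4.09 log2 units over the 60 probes and tumor 3 exceeded it by at least 4.05 (4.93 and 5.32 with signals as measured). Healthy skin 1 exceeded healthy skin 2 by a median of at least 6.15 and healthy skin 3 by at least 6.17 (6.95 and 6.81 as measured). Tumors 1 and 3 were within 1 log2 unit of each other for 50 of 60 probes and healthy skin 2 and 3 for 36, where the quartiles of healthy skin 3 minus healthy skin 2 were -0.66 and 0.82. Healthy skin 1 and 2 shared a slide row, as did all 3 tumors, while healthy skin 3 lay in the row of the tumors. Per array, the median log2 signal of the family was 0.77, -4.15 and 0.52 in tumors 1, 2 and 3, against 2.91, -3.34 and -3.67 in healthy skin 1, 2 and 3.

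**Figure D4:**
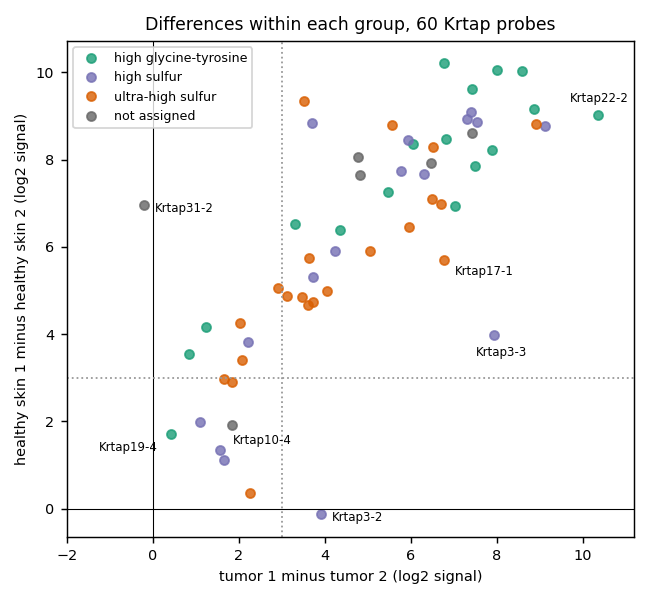
Tumor 1 minus tumor 2 (x axis) against healthy skin 1 minus healthy skin 2 (y axis), both in log2 signal, for the 60 tested Krtap probes, coloured by composition class; dotted lines mark an 8-fold difference. Most points lie above and to the right of both dotted lines, and Krtap31-2 and Krtap3-2 lie on 1 axis each.

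Replicate spots show how far spots of 1 probe differ on a single array. Krtap6-5 has 10 spots of 1 probe on each array, and after removal of outlier spots their SD in log2 was 0.04, 0.09 and 0.06 in tumors 1, 2 and 3, against 0.04, 0.69 and 0.06 in healthy skin 1, 2 and 3. Its mean log2 signals were 0.71, -7.88 and 0.43 in tumors 1, 2 and 3, against 3.35, -6.69 and -6.49 in healthy skin 1, 2 and 3. It was not well above background on tumor 2, healthy skin 2 and healthy skin 3. On those arrays the SD is between dim signals and does not measure how precisely the transcript was read. Krtap6-5 belongs to the high glycine-tyrosine KAPs.

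High glycine-tyrosine KAPs, all on chromosome 16, had the widest spread. Of their 17 tested probes, 14 had both 8-fold differences, and the median SD was 4.12 within tumors and 5.14 within healthy skins. Krtap22-2 had log2 signals of 2.63, -7.73 and 2.55 in tumors 1, 2 and 3, against 5.57, -3.46 and -6.42 in healthy skin 1, 2 and 3. Tumor 2 and healthy skin 3 were not well above background, so tumor 1 was at least 333-fold above tumor 2, and healthy skin 1 was at least 925-fold above healthy skin 3.

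Krtap20-2, whose tyrosine-rich repeat is printed above, was bright on all arrays at 1 probe, with 3.80, -0.55 and 4.04 in tumors 1, 2 and 3, against 7.03, 0.63 and 0.16 in healthy skin 1, 2 and 3. The probe printed above for Krtap20-2 had 3.04, -4.45 and 3.22 in tumors 1, 2 and 3, against 6.34, -1.52 and -2.46 in healthy skin 1, 2 and 3, with the same arrays low. Krtap6-5 was measured by another probe (printed above) at 3.66, -1.80 and 4.06 in tumors 1, 2 and 3, against 6.93, -0.31 and -0.71 in healthy skin 1, 2 and 3. All of these were well above background on all 6 arrays, and healthy skin 1 was the highest array for each.

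The rest of the Krtap6 subfamily ran in parallel. Krtap6-1 had 3.27, -4.61 and 3.49 in tumors 1, 2 and 3, against 6.53, -1.68 and -3.22 in healthy skin 1, 2 and 3 at the probe printed above. Krtap6-2 had -0.02, -8.02 and 0.49 in tumors 1, 2 and 3, against 3.50, -6.55 and -6.52 in healthy skin 1, 2 and 3. Krtap6-2 was not detected above background on tumor 2, healthy skin 2 or healthy skin 3, so those values are bounds only.

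The Krtap19 subfamily was split. Krtap19-2 (Krtap16-1 on the array) had 2.43, -3.62 and 3.89 in tumors 1, 2 and 3, against 6.55, -1.81 and -4.06 in healthy skin 1, 2 and 3. Krtap19-3 (Krtap16-5 on the array) had -1.02, -7.80 and 0.43 in tumors 1, 2 and 3, against 2.94, -7.27 and -6.45 in healthy skin 1, 2 and 3. Both followed tumor 2 low and healthy skin 1 high, and Krtap19-2 was detected on all 6 arrays. Krtap19-5 (Krtap8-2 on the array), in contrast, had 0.25, -0.59 and 0.86 in tumors 1, 2 and 3, against 3.26, -0.30 and 2.96 in healthy skin 1, 2 and 3 (log2 fold change -1.80 ± 0.92 SE, adjusted p = 0.179), with healthy skin 3 near healthy skin 1. Without healthy skin 2, 3 of 60 Krtap probes passed the test as lower in tumors, 2 of Krtap19-5 and 1 of Krtap19-4, where the background over all probes was 10.4%. The 2 probes of Krtap19-5 had the same order of arrays, and Krtap19-4 above was also high in healthy skin 3, the array where most KAPs were dim. A further gene, Krtap19-9b, is named by its accession on the array and so is outside the rule. Its first probe had 0.28, -7.78 and 0.90 in tumors 1, 2 and 3, against 3.33, -7.25 and -6.22 in healthy skin 1, 2 and 3. Its other probe had -1.26, -7.77 and -0.32 in tumors 1, 2 and 3, against 1.76, -6.79 and -6.44 in healthy skin 1, 2 and 3, so both showed the common pattern.

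Other high glycine-tyrosine genes were Krtap7-1, Krtap8-1 and Krtap21-1 (Krtap16-7 on the array), each with both 8-fold differences. Their tumor 2 signals ran from -7.70 to -4.85, against healthy skin 1 signals from 2.40 to 4.92.

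High sulfur KAPs followed less uniformly, with both 8-fold differences for 11 of 16 tested probes and a median SD of 2.91 within tumors and 3.89 within healthy skins. Krtap3-1 had 1.37, -7.75 and 1.11 in tumors 1, 2 and 3, against 3.78, -4.99 and -5.12 in healthy skin 1, 2 and 3. Krtap3-3 had 0.11, -7.82 and 0.06 in tumors 1, 2 and 3, against 2.69, -1.30 and -1.74 in healthy skin 1, 2 and 3. These neighbours of Krtap3-2 were not well above background on tumor 2, where Krtap3-2 was, and they were not level across the healthy skins as Krtap3-2 was. The Krtap3 subfamily holds small high sulfur KAPs of the hair cortex.

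The Krtap1 genes encode high sulfur KAPs of the cortex. Krtap1-5 had 1.12, -2.58 and 1.09 in tumors 1, 2 and 3, against 4.02, -4.82 and -6.09 in healthy skin 1, 2 and 3 (log2 fold change 2.18 ± 2.50 SE, adjusted p = 0.541). Krtap1-3 had -1.62, -7.93 and -2.12 in tumors 1, 2 and 3, against 0.23, -7.44 and -6.54 in healthy skin 1, 2 and 3. In both genes, tumors 1 and 3 lay below healthy skin 1 and above the other healthy skins, so the groups overlapped. Without healthy skin 1, 3 of 60 Krtap probes passed the test as higher in tumors, of Krtap1-5, Krtap31-2 and Krtap4-16, where the background was 6.74%. Healthy skin 3 was not well above background for any of them, so their fold changes are not measured on both sides.

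Other high sulfur KAPs, on chromosome 16, followed the common pattern. Krtap14 had -0.52, -7.91 and -0.15 in tumors 1, 2 and 3, against 2.45, -6.66 and -6.26 in healthy skin 1, 2 and 3. Krtap13-1 had -0.04, -7.35 and 0.32 in tumors 1, 2 and 3, against 2.55, -6.37 and -5.57 in healthy skin 1, 2 and 3. Krtap11-1, read at the 1 of its 2 probes detected on all arrays, had 1.31, -2.92 and 1.52 in tumors 1, 2 and 3, against 4.54, -1.36 and -1.93 in healthy skin 1, 2 and 3. In all of these genes healthy skin 1 was the highest array. Krtap14 and Krtap13-1 were not well above background on tumor 2, healthy skin 2 and healthy skin 3.

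Krtap10-10, in the chromosome 10 cluster with Krtap10-4, did not share it: 4.51, 2.86 and 3.27 in tumors 1, 2 and 3, against 3.28, 2.17 and 3.40 in healthy skin 1, 2 and 3 (log2 fold change 0.60 ± 0.52 SE, adjusted p = 0.422). Healthy skin 3 matched healthy skin 1 there and tumor 1 was the highest array. The third gene of that cluster, Krtap12-1, had the common order with smaller differences: tumor 1 exceeded tumor 2 by 1.08 and healthy skin 1 exceeded healthy skin 2 by 1.99 log2 units. None of the 3 tested probes of the chromosome 10 cluster had both 8-fold differences, against 21 of 24 on chromosome 16, 12 of 20 on chromosome 11, 6 of 10 on chromosome 7 and 3 of 3 on chromosome 1, all counted on signals as measured.

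Ultra-high sulfur KAPs, of the Krtap4, Krtap5, Krtap9 and Krtap17 subfamilies, had the smallest spread of the named classes, 1.96 within tumors and 3.08 within healthy skins (median SD), and 13 of 21 tested probes had both 8-fold differences. Krtap4-8 was bright on every array, at 3.11, 1.47 and 2.30 in tumors 1, 2 and 3, against 3.73, 0.77 and 2.36 in healthy skin 1, 2 and 3, and tumor and healthy means were nearly equal (log2 fold change 0.01 ± 0.76 SE, adjusted p = 0.995). Krtap4-7 of the same subfamily had 0.98, -7.94 and 0.31 in tumors 1, 2 and 3, against 2.85, -5.97 and -6.56 in healthy skin 1, 2 and 3. Krtap4-7 was not well above background on tumor 2, healthy skin 2 and healthy skin 3, while Krtap4-8 was on all 6 arrays.

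Krtap4-16 had the largest positive change of the ultra-high sulfur class at 1 of its 2 probes. That probe had 1.29, -2.23 and 0.11 in tumors 1, 2 and 3, against 2.58, -6.76 and -6.42 in healthy skin 1, 2 and 3 (log2 fold change 3.26 ± 2.37 SE, adjusted p = 0.333). The other probe had 1.74, -1.89 and 0.66 in tumors 1, 2 and 3, against 2.77, -2.99 and -2.52 in healthy skin 1, 2 and 3 (log2 fold change 1.09 ± 1.58 SE, adjusted p = 0.632). The probes agreed on the order of tumors, and they differed on healthy skin 2 and 3, where the first was not well above background. Krtap4-2, whose values were -0.28, -6.97 and -1.11 in tumors 1, 2 and 3, against 1.64, -5.34 and -5.33 in healthy skin 1, 2 and 3, was also not well above background on those arrays, nor on tumor 2.

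Krtap5 genes, ultra-high sulfur KAPs of the hair cuticle, were measured by 10 probes. Krtap5-2 had 2.66, -0.82 and 2.27 in tumors 1, 2 and 3, against 4.19, -0.66 and -0.29 in healthy skin 1, 2 and 3 at the probe detected on all arrays. Krtap5-3 had 1.40, -0.44 and 1.54 in tumors 1, 2 and 3, against 4.07, 1.17 and 0.34 in healthy skin 1, 2 and 3. Healthy skin 1 was the highest array and tumor 2 the lowest for both.

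Krtap5-5 was split between its 4 probes. The probe nearest its 5′ end had 2.81, 0.56 and 0.13 in tumors 1, 2 and 3, against 0.63, 0.27 and 0.98 in healthy skin 1, 2 and 3 (log2 fold change 0.54 ± 0.67 SE, adjusted p = 0.574). The probe printed above had 1.16, -5.32 and 0.95 in tumors 1, 2 and 3, against 2.89, -4.21 and -6.47 in healthy skin 1, 2 and 3, and the remaining 2 had tumor 2 and both of healthy skin 2 and 3 low as well. The 5′ probe alone had tumor 1 as its highest array and healthy skin 1 within the range of the other healthy skins.

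Krtap9-3 had 1.65, -4.87 and 1.44 in tumors 1, 2 and 3, against 3.80, -4.50 and -3.33 in healthy skin 1, 2 and 3. Krtap17-1, the only member of its subfamily, had 0.79, -5.98 and 0.80 in tumors 1, 2 and 3, against 3.87, -1.83 and -3.23 in healthy skin 1, 2 and 3 (log2 fold change -1.07 ± 2.30 SE, adjusted p = 0.753). Tumor 2 was the lowest array for both, and Krtap17-1 was not well above background there.

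The remaining 6 tested probes were not assigned to a class here. Krtap16-3 (Krtap16-10 on the array) had 1.99, -2.78 and 3.29 in tumors 1, 2 and 3, against 6.31, -1.74 and -2.92 in healthy skin 1, 2 and 3. Krtap28-13, on chromosome 1, had 0.33, -6.15 and 0.58 in tumors 1, 2 and 3, against 3.35, -4.59 and -4.91 in healthy skin 1, 2 and 3. Krtap28-10 beside it had -3.12, -7.95 and -2.94 in tumors 1, 2 and 3, against 0.22, -7.43 and -6.48 in healthy skin 1, 2 and 3. As measured, these 3 genes had both 8-fold differences at all 4 of their probes, unlike Krtap31-1 and Krtap31-2. Krtap28-10 was not well above background on tumor 2, so tumor 1 was only shown to be at least 6.16-fold above it and tumor 3 at least 7-fold. It is the probe that the lowest signal well above background took from the 42.

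The 5 probes outside the test were Krtap13, Krtap4-6, Krtap24-1, Krtap19-1 (Krtap16-9 on the array) and 1 of 4 probes of Krtap20-2. Krtap13 was not well above background on any array. Krtap19-1 and Krtap24-1 were well above background on tumor 3 and healthy skin 1 only, and Krtap4-6 and the Krtap20-2 probe on healthy skin 1 only. Over all 65 probes, 59 had tumor 2 lowest of the tumors together with healthy skin 1 highest of the healthy skins.

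Probes with either motif marked above were detected more often on the dim arrays. A single match was enough to count, so not every such probe lies in a repeat. Of the 28 with a match, 22 were well above background on tumor 2, against 24 on healthy skin 2 and 21 on healthy skin 3. Of the 37 with neither motif, the counts were 16, 15 and 15. Both 8-fold differences were about as frequent, at 19 of 27 tested probes with a match and 23 of 33 without. A true repeat can bind transcripts of several KAP genes, and the part of repeats in these signals was not tested.

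Promoters of the family share letters that the rule did not use. TATAAA stood on either strand in the 250 bases before the start in 36 of the 45 Krtap genes with a RefSeq promoter (80%), against 12.4% of all 32851 promoters. Between 50 and 11 bases before the start, on the gene's strand, it stood in 29 (64.4%), against 2.4% of all. Krtap6-5 and Krtap22-2 are shown as examples of genes with large differences between arrays (GRCm38.p6, chr16:89047900-89048019 and chr16:89010760-89010879, both minus strand, capitals marking TATAAA).
Krtap6-5: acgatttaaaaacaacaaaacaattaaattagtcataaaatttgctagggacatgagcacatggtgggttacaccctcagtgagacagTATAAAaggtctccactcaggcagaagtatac
Krtap22-2: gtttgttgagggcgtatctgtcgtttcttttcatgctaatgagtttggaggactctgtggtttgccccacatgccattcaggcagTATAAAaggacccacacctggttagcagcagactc

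HOXC13 is a homeodomain factor of the hair matrix that is needed for hair shaft gene expression in the mouse. Its reported binding letters (TTTATNAA, TTTATNAG, TTTATNGA, TTTATNGG, TTAATNAA, TTAATNAG, TTAATNGA or TTAATNGG) stood on either strand in 23 of 45 Krtap promoters (51.1%), against 17.2% of all. Some of these letters can overlap TATAAA; without overlapping matches the counts were 21 of 45 (46.7%), against 14.6%. CTTTGA, letters bound by the Wnt effector LEF1, stood in 10 of 45 (22.2%), against 13.8%. These matches describe letters and are no evidence of binding.

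Other genes of the hair shaft were counted from lists of genes, with 1 probe per gene, beside the share of all probes called (16% lower, 10.1% higher). None of 7 type I and 6 type II hair keratins, the filament partners of KAPs, passed the test in either direction (limma), and 1 and 1 of them had an unadjusted p under 0.05. Their median log2 signals were 1.46, -1.62 and 1.36 (type I) in tumors 1, 2 and 3, against 4.49, -3.75 and -3.35 in healthy skin 1, 2 and 3. Tumor 2 was lowest of the tumors together with healthy skin 1 highest of the healthy skins for 5 of 7 type I and 4 of 6 type II keratins. The median SD of type I keratins was 2.40 within tumors and 4.59 within healthy skins. For type II it was 1.07 and 2.94.

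Exceptions were Krt32, Krt36, Krt81 and Krt85. Krt85, an early hair matrix and cortex keratin, had 4.33, 5.23 and 4.62 in tumors 1, 2 and 3, against 4.11, 3.41 and 1.87 in healthy skin 1, 2 and 3, with tumor 2 the highest array. Another probe of Krt85 had both 8-fold differences, so its probes disagree. Krt32, a cuticle keratin, had 3.74, 2.85 and -3.39 in tumors 1, 2 and 3, against -0.77, -7.31 and -6.48 in healthy skin 1, 2 and 3, with tumor 3 and not tumor 2 the low one.

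Genes of the inner root sheath, the layer that moulds the growing shaft, varied most like KAPs. Of 8, 7 had tumor 2 lowest of the tumors and healthy skin 1 highest of the healthy skins. Their median SD was 3.79 within tumors and 4.06 within healthy skins, against 3.02 and 3.94 over the Krtap probes. Krt71, a keratin of that sheath, had 5.76, -5.44 and 5.39 in tumors 1, 2 and 3, against 7.62, -1.21 and -1.53 in healthy skin 1, 2 and 3. Krt72 was the exception and the only call, lower in tumors: 0.07, -6.26 and -1.07 in tumors 1, 2 and 3, against 3.06, 3.12 and 1.28 in healthy skin 1, 2 and 3 (log2 fold change -4.91 ± 1.51 SE, adjusted p = 0.0492). Of genes for crosslinking and adhesion in the shaft, 2 of 7 were higher in tumors, the desmosomal cadherin gene Dsc2 (log2 fold change 5.65 ± 0.32 SE, adjusted p = 0.000251) and the arginine deiminase gene Padi1 (log2 fold change 2.74 ± 0.78 SE, adjusted p = 0.0389), and 0 were lower.

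**Figure D5:**
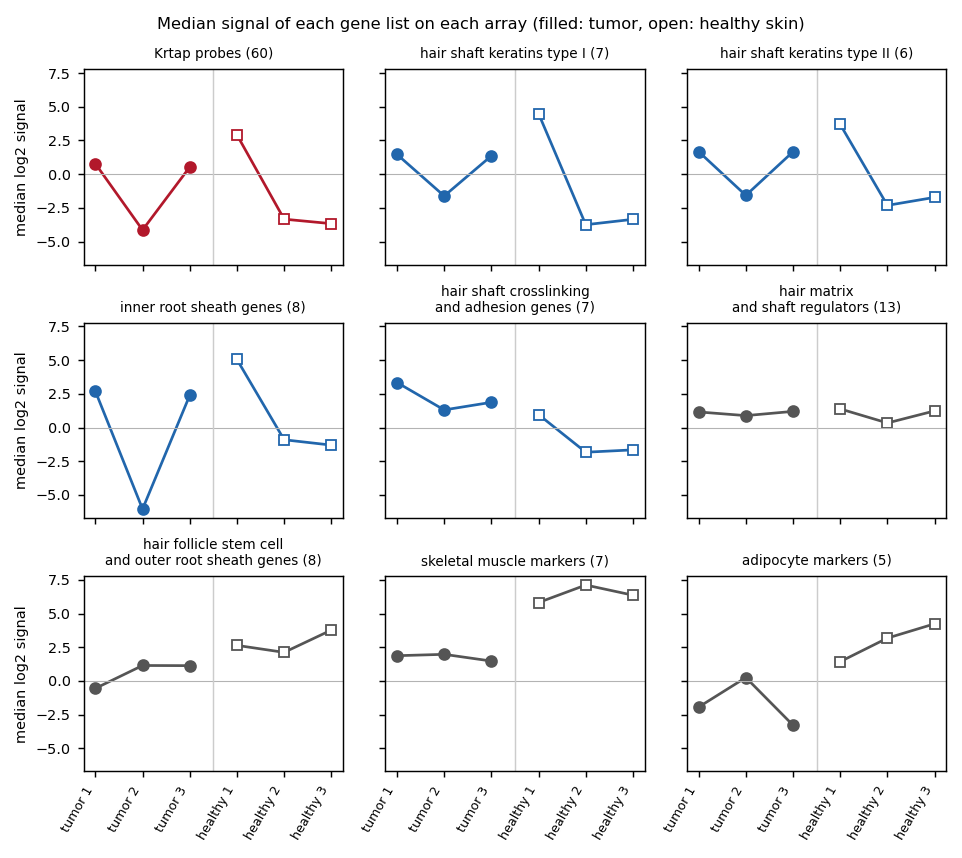
Median log2 signal on each array (y axis, relative to the array's 75th percentile) of the Krtap probes and of 8 gene lists (number of tested probes or genes in brackets); filled points are tumors 1 to 3 and open points healthy skin 1 to 3. Hair keratins and inner root sheath genes dip on tumor 2 and peak on healthy skin 1 as Krtap probes do, while muscle markers separate the groups.

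Of 13 regulators of the hair matrix, 4 were lower in tumors (Gata3, Hoxc13, Msx2 and Lef1), 1, Runx1, was higher and 8 did not pass the test. Tumor 2 was the lowest tumor for 8, 5 of which also had healthy skin 1 highest of the healthy skins, and none had both 8-fold differences. Hoxc13 had -2.72, -5.47 and -1.45 in tumors 1, 2 and 3, against 1.57, -0.34 and 1.17 in healthy skin 1, 2 and 3 (log2 fold change -4.01 ± 0.99 SE, adjusted p = 0.025), so the groups did not overlap, although tumor 2 was the lowest tumor. Gata3, an inner root sheath regulator, had 0.85, 0.62 and 1.73 in tumors 1, 2 and 3, against 4.81, 5.35 and 5.67 in healthy skin 1, 2 and 3 (log2 fold change -4.21 ± 0.40 SE, adjusted p = 0.000913), with all tumors low. Of 8 stem cell and outer root sheath genes, 5 were lower in tumors and 0 higher.

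Markers of other tissues in a biopsy also moved. All 7 skeletal muscle markers were lower in tumors, with per-array medians of 1.48 to 1.97 in tumors and 5.82 to 7.11 in healthy skins. All 5 tested adipocyte markers were lower, with medians of -1.94, 0.25 and -3.28 in tumors 1, 2 and 3, against 1.43, 3.18 and 4.24 in healthy skin 1, 2 and 3. For all 5, tumor 2 was the highest tumor and healthy skin 1 the lowest healthy skin, opposite to the KAPs. Tumor 2 was the highest tumor for all 7 muscle markers too, and 3 of those had the whole opposite order. The share of all probes with that order was not counted. Of 6 immune cell markers, 2 were lower and 1 higher. The part of tissue makeup in the KAP values was not tested.

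Probes with both 8-fold differences were found outside the family too, as the rule defines it by array name. Of 101 such probes on the whole array, 42 were Krtap probes and 59 were not, and 12 of those 59 were probes of keratin genes, 2 were of Krtap19-9b and 1 each was of Tchh and Tchhl1, which encode trichohyalin and a protein like it. The remaining probes were named after they were seen and include Gprc5d, a receptor gene known from hair follicles and nails, Prr9, Crym, Fbp1 and Ly6g6d. Many of the others carry provisional names, such as Gm11554, Gm11559, Gm11563 and Gm11595. Whether any of those are KAP genes was not checked. By list, with 1 probe per gene, both 8-fold differences held for 6 of 8 inner root sheath genes. They held for 3 of 7 type I and 2 of 6 type II hair keratins, and for 1 of 7 crosslinking and adhesion genes. The Krtap count was 42 of 60 tested probes. Nothing about shared control follows from these counts.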

How the data were processed

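Total RNA was labelled with Cy3 and hybridised to 1-colour Agilent arrays, all on 1 slide. The deposited intensity values come from Feature Extraction 10.7.3.1 with background subtracted, per the file headers. The deposited series table holds log2 values, and the submitters' processing notes name limma. Values used here were log2 processed signals minus the array's 75th percentile over 59305 noncontrol spots, without outlier spots, averaged per probe. Of 55681 probes, 34283 were well above background on at least 3 of 6 arrays and were fitted one by one in R 4.3.3 by limma, version 3.58.1 (lmFit, eBayes; 2-sided, adjusted by Benjamini-Hochberg over all probes, threshold 0.05). No block was used, as the labels do not say whether equal replicate numbers mark shared animals.

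Members and lists were chosen with earlier results of these data known. RefSeq (GRCm38.p6) named 62 of the 65 probes by accession and 2 by symbol, and 1 kept its array name. Classes follow the subfamily number, since protein sequences were not used here, except that Krtap16-3 was set by hand to no class. Full values went, per class, to genes past the test without overlap and to the 3 highest means and 3 largest SDs in each group. They also went to the 3 largest changes that did not pass, in the direction that most of the class took. All of these used 1 probe per gene. Genes singled out in the text after their values were seen were added. Where a dim array gives only a bound, "at least" is written, from the lowest signal well above background on that array. No columns of other samples were present (0). Scripts were tested on simulated data. Alternatives were scaling by spike-ins, by the median or by quantiles, normexp (offset 50), the deposited log2 table, other filters, 1 probe per gene, variance trend, array weights, replicate and slide row blocks, treat, and leaving out each array.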

Additional observations from a re-analysis of the deposited data

How the results depend on the processing

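The count of Krtap probes lower in tumors, 1 as reported, was 0 with quantile, median or spike-in scaling, with no filter on dim probes and with treat, 2 with the authors' deposited values, with detection on all 6 arrays, with a variance trend, with array weights and with the replicate block, and 3 with normexp; leaving out each array gave 0 to 3. Blocking on slide row, the 1 probe was that of Krtap19-4, not Krtap10-4, and the replicate block added Krtap19-4 (adjusted p = 0.024). The count of probes higher in tumors, 0 as reported, was 1 with spike-in scaling, normexp or the replicate block, and leaving out each array gave 0 to 3. The labels do not say whether replicate numbers pair the samples. Correlations of deviations were 0.09, 0.13 and -0.07 for replicates 1, 2 and 3, and with 3 arrays a group they cannot decide it. Over all probes the replicate block gave 4602 lower and 3002 higher, against 5471 and 3446 without it. Krtap10-4 kept its call under 8 of 19 alternatives and lost it under 11, with a log2 fold change from -2.52 to -1.12. The family's median log2 fold change ran from -1.88 to 2.58, and leaving out each array gave -0.86 to 2.52. The all-probe median shifts with the scaling: -0.18 as reported, 0.71 when scaled by spike-ins and 0.19 by the median. The median SD within tumors was 1.86 with normexp, 1.85 with the deposited values and 1.94 with detection on all 6 arrays, and leaving out each tumor gave 0.26 to 3.76; leaving out each healthy skin gave a median SD within healthy skin of 0.58 to 4.92. The alternatives for the SDs were chosen after seeing the data. The cause of these changes was not tested. Detection on all 6 arrays left no value for Krtap31-2 or for the probe of Krtap4-16 with the larger change, and that Krtap4-16 probe has none with 1 probe per gene. Signals near background limit the dim arrays: 38 of 65 probes were detected on tumor 2, against 39 and 36 on healthy skin 2 and 3.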
